A study of Equus caballus with 19 samples.

Results

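Transcripts of the transforming growth factor β (TGF-β) and bone morphogenetic protein (BMP) ligands TGFB1, BMP2, BMP4, BMP7 and INHBA were measured in the whole blood of 19 young horses. Of the 1179 genes that could be named here, through a RefSeq accession or the study's list, they make up 5. Of the 43384 probes, 18 could be named as theirs. The study describes a wider reannotation of the probes, which was not used for the names here. Of the 18 probes, 15 were named through the RefSeq accession in the deposited files, 2 through the study's own list of genes that differed between its groups, and 1 because it was designed to the same transcript as a listed probe. TGFB1 and BMP2 were therefore chosen by the very comparison of the groups, and their differences between the groups are given as a description without a test. BMP4, BMP7 and INHBA were named by accession alone and were tested.

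In the study, Welsh foals aged about 10 months at the start lived for 12 weeks either under control conditions, with an impoverished social and sensory life, or under environmental enrichment (EE), with more space, company, varied feed and varied sensory stimulation. Venous blood was taken from each horse at the end of the 12 weeks into tubes that stabilize RNA, and each horse was measured once on a single-color Agilent horse array. The control group held 9 horses, 6 males and 3 females, and the EE group held 10, 4 males and 6 females, so sex was not balanced between the groups. The 19 arrays lay on 5 slides, each with horses of both groups, and 3 of the arrays were scanned in a later session than the other 16.

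The family's members are secreted dimers that bind pairs of serine/threonine kinase receptors, which phosphorylate SMAD proteins that then act in the nucleus. TGF-β1 is stored in large amounts in platelets, is made by many leukocytes, and restrains T cell activation while favoring regulatory T cells. BMPs were found through bone formation and act in many tissues, and activin A, the dimer of the INHBA product, is released by myeloid cells during inflammation.

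Values are log2 of the processed signal after each array was scaled to a 75th percentile of 500, so a difference of 1 is a doubling. Before scaling, the 75th percentile ran from 346 to 814 over the arrays, with a mean of 588 ± 102 (SD, n = 9) in control and 524 ± 134 (SD, n = 10) in EE horses. The scanner software marks a spot as well above background when it clearly exceeds the local background, and arrays had from 61.2% to 69.6% of their spots so marked. The median share was 65.4% in control and 64.5% in EE horses, so the groups overlapped in this measure of array quality. On slides 1 to 4 every control array lay at position 2 or 4 and every EE array at position 1 or 3, and on slide 5 the control array lay at position 4 and the EE arrays at 2 and 3. Position on the slide and group can therefore hardly be told apart in any difference between the groups. No spot was saturated, and precision is limited by having 19 arrays.

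The label of whole blood was checked against marker genes of blood cells. Of 51 marker genes, 15 could be named by accession and 12 of these had a probe well above background on at least 15 arrays. They included the hemoglobin genes HBA2 and HBB of red cells, CD14 and CD68 of monocytes, ITGA2B and SELP of platelets, CD2, CD28 and IL7R of T cells, GNLY and GZMB of NK cells, and FCER2 of B cells. SLC4A1 of red cells and ITGB3 of platelets were named but not detected. CXCL8, listed here for neutrophils, was not detected either. It was the only gene of the neutrophil list that could be named, so the presence of neutrophils was not checked. Of the genes that blood should lack, ALB of liver and MYH1 and MYH2 of muscle had 11 probes, and 0 of them were detected. Whole blood is a mixture, and fewer cells of a type and less RNA per cell cannot be told apart in it.

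A ligand was taken as detected when at least 1 of its probes was well above background on at least 15 of the 19 arrays. By that rule 3 of the 5 ligands were detected: both TGFB1 probes, both BMP2 probes and all 9 BMP4 probes were well above background on all 19 arrays. They are the main TGF-β of blood and the closely related pair BMP2 and BMP4. The single BMP7 probe was well above background on 11 arrays, 6 control and 5 EE. No INHBA probe reached more than 7 arrays. With a limit of 10 arrays in place of 15, BMP7 would count as detected and the number would be 4 of 5. BMP7 encodes a BMP best known from kidney and bone, and INHBA the βA subunit of activins and inhibin A. The plot of the values by horse marks in which animals each ligand was well above background.

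**Figure D1:**
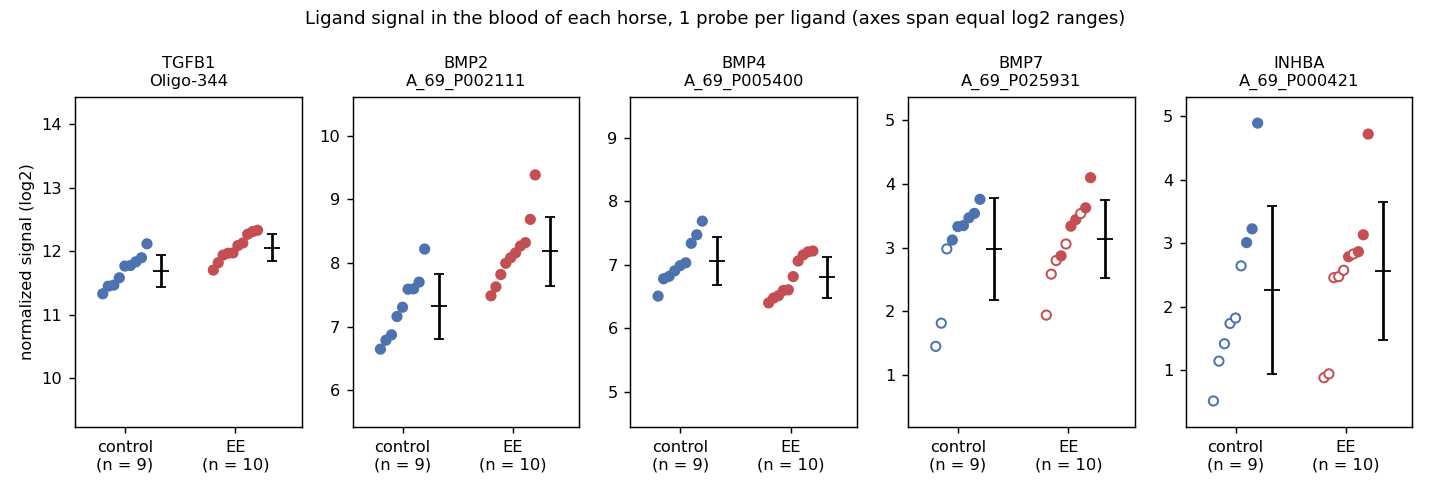
Each point is the log2 signal of 1 horse on 1 reference probe per ligand, in 9 control and 10 EE horses, with filled points for spots well above background and bars for the mean and SD of a group. TGFB1, BMP2 and BMP4 were well above background in all 19 horses, BMP7 in 11 and INHBA in 7.

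TGFB1 encodes TGF-β1, the form of TGF-β most abundant in blood. On probe Oligo-344, control horses ran from 11.33 through a median of 11.77 to 12.12 in log2 signal, and EE horses from 11.70 through 12.03 to 12.33. The groups overlapped: 4 EE horses lay above the highest control horse and 4 control horses below the lowest EE horse. The mean was 11.69 ± 0.25 (SD, n = 9) in control and 12.05 ± 0.21 (SD, n = 10) in EE horses, a difference of 0.36 ± 0.11 (SE) in log2, or 1.28-fold. Differences here are EE minus control, so a positive value means more signal in EE horses. The heading of the study's list reads the other way for both TGFB1 and BMP2, and the arrays' own values were used. The study's pathway summary names TGF-β signaling under its EE group, which is the direction of the arrays. All 10 EE horses exceeded the control mean on this probe, and the differences by slide ran from 0.09 to 0.52. Nothing is read from these signs, since the same horses chose the gene.

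The other TGFB1 probe, A_69_P001041, gave a smaller difference in the same direction. Control horses ran from 9.85 through 10.06 to 10.45 and EE horses from 9.95 through 10.31 to 10.62. The means of 10.07 ± 0.21 (SD, n = 9) and 10.33 ± 0.22 (SD, n = 10) differed by 0.26 ± 0.11 (SE), and 8 of 10 EE horses lay above the control mean. The ranges overlapped over most of their length. Oligo-344 was printed as 2 spots on each array, and the spots differed by at most 0.098 in log2, with a technical SD of 0.033 for a single spot. The SD between horses of a group was 0.23. Since both spots lie on the same array, the technical SD covers error between spots only, and variation between arrays was not measured.

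BMP2 encodes a BMP known for inducing bone and for roles in iron balance and vessel walls. On probe A_69_P002111, control horses ran from 6.64 through a median of 7.30 to 8.22, and EE horses from 7.48 through 8.12 to 9.38. EE horse648 was the highest and control horse476 the lowest, 6.68-fold apart, and 4 EE horses lay above the highest control horse while 5 control horses lay below the lowest EE horse. The means were 7.32 ± 0.51 (SD, n = 9) and 8.18 ± 0.55 (SD, n = 10), a difference of 0.86 ± 0.23 (SE), or 1.82-fold. All 10 EE horses exceeded the control mean although the ranges overlapped. On the 5 slides the difference ranged from 0.11 to 2.06, and nothing is read from its sign, since the same horses chose the gene.

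The other BMP2 probe, A_69_P002112, was designed to the same transcript and is no separate evidence. Its means of 7.16 ± 0.50 (SD, n = 9) and 8.03 ± 0.51 (SD, n = 10) differed by 0.88 ± 0.22 (SE). In males the difference on A_69_P002111 was 0.84 and in females 0.77, given as values only, since the same horses chose the gene.

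Over all 43384 probes, 789 (1.82%) passed the study's limits of an unadjusted p under 0.005 and a change of at least 20%. Of the 4 probes of TGFB1 and BMP2, 3 passed them, and since the study's list was made with these limits, nothing is read from that count. Of all probes, 510 (1.18%) passed in the direction of higher signal in EE horses and 279 (0.643%) in the direction of lower signal. The total of 789 ran from 501 (without control horse477) to 1039 when each horse was left out. It was 457 with array brightness as a covariate. No probe on the arrays had an adjusted p under 0.05 (0%), the lowest adjusted p was 0.0922, and 5068 probes (11.7%) had an unadjusted p under 0.05. That count of 0 was 2 with dim probes filtered out, 3 with normexp background correction and 3 without control horse650, so it depended on the processing and on single horses. The share of higher signal among the called probes depended on the background correction and on single horses. The median difference of all probes was 0.06, and over the 24436 probes well above background on every array it was 0.0052.

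**Figure D2:**
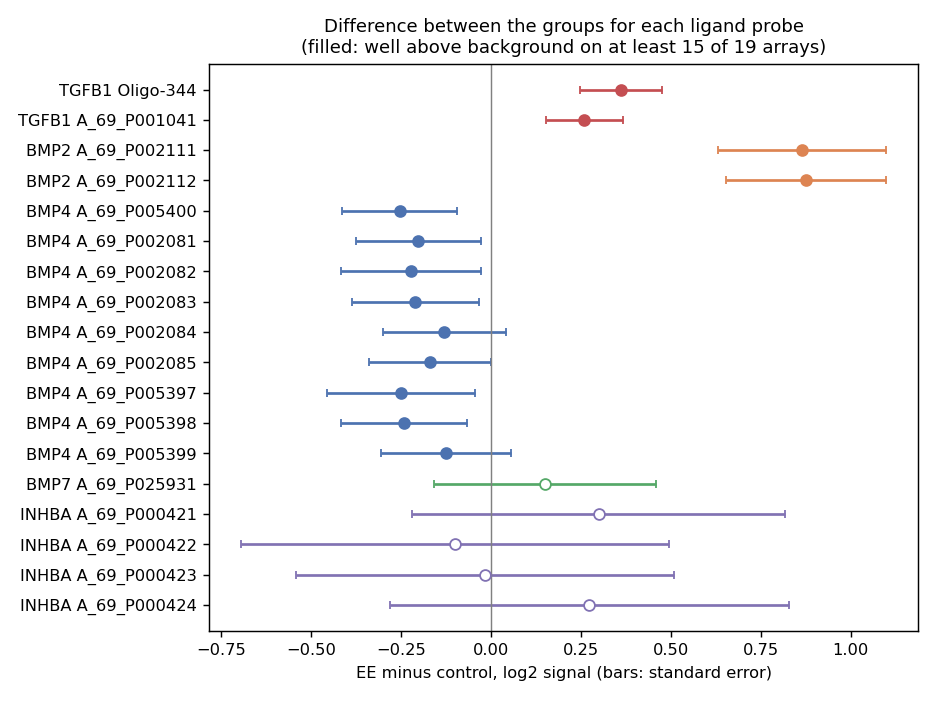
Each point is the difference of 1 ligand probe, EE minus control in log2, over 9 control and 10 EE horses; bars are standard errors and filled points mark probes well above background on at least 15 arrays. The 4 probes of TGFB1 and BMP2, which were chosen by this comparison, lie above 0 and the 9 BMP4 probes below it, and the INHBA probes have the longest bars.

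BMP4, a close relative of BMP2 that shares its receptors, was tested because its probes were named by accession only. On probe A_69_P005400, control horses ran from 6.51 through a median of 6.99 to 7.69 and EE horses from 6.40 through 6.71 to 7.22. The ranges overlapped in part: control horse645, horse477 and horse472 lay above every EE horse, and EE horse642 was the lowest of all. The means of 7.06 ± 0.37 (SD, n = 9) and 6.80 ± 0.33 (SD, n = 10) differed by -0.25 ± 0.16 (SE), with a 95% interval from -0.59 to 0.08 and an adjusted p from limma of 0.529. The difference was below the spread between horses of a group. All 9 BMP4 probes had differences between -0.25 and -0.13, with adjusted p from 0.529 to 0.766. These 9 probes share a gene and are not 9 independent results. Of the 14 probes of BMP4, BMP7 and INHBA, 0 passed the study's limits, beside 1.82% of all probes, so nothing is read from that count. By slide, the difference on A_69_P005400 ranged from -0.81 to 0.26, so it did not keep its sign.

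On the BMP7 probe A_69_P025931, control horses ran from 1.45 through 3.33 to 3.76 and EE horses from 1.94 through 3.20 to 4.10. The groups overlapped over most of their range, which lies where spots cease to be well above background. The difference was 0.15 ± 0.31 (SE), with an adjusted p of 0.842. A change in BMP7 was not detectable at this signal, and the sign of the difference rested on control horse470.

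INHBA had 4 probes, and few horses had all of them well above background. All 4 probes were well above background in control horse650, with values from 4.89 to 5.28, in control horse645, from 3.01 to 3.71, and in EE horse642, from 4.46 to 4.76. Control horse476 had 3 probes well above background, 5 horses had 1, and 10 horses had 0. So 3 of 19 horses, 2 control and 1 EE and all females, had a signal on every probe. On A_69_P000421 the group difference was 0.30 ± 0.52 (SE) with an adjusted p of 0.808, and the other 3 probes gave 0.27, -0.10 and -0.02. The SE of 0.52 exceeded the difference. No change in INHBA was detectable, and the signs changed with the floor, the background correction and single horses.

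**Figure D3:**
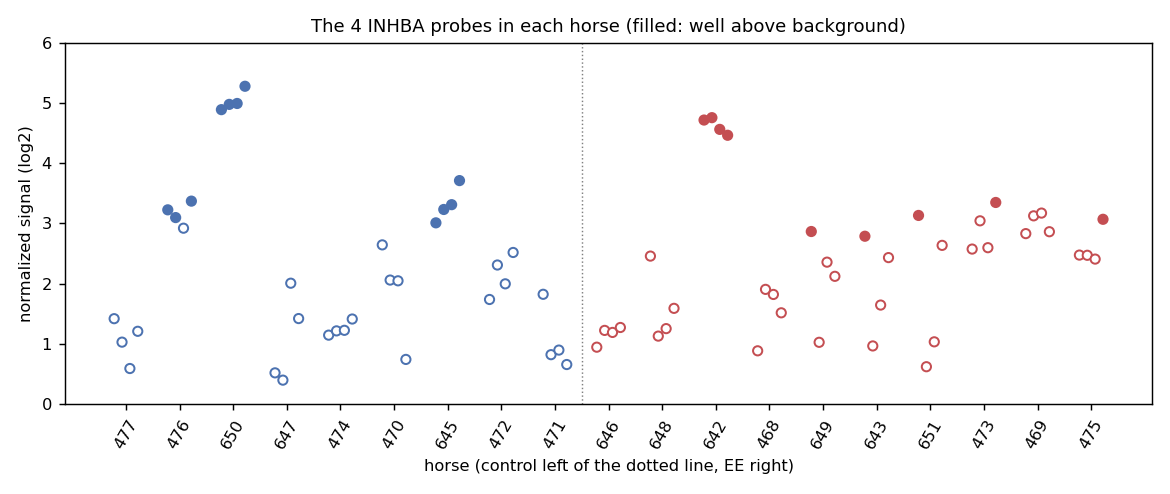
The log2 signal of the 4 INHBA probes is shown for each of the 19 horses, with filled points for spots well above background. Control horse650 and horse645 and EE horse642 have all 4 probes well above background, and 10 horses have none.

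The ligands differed in how much they varied among horses of a group. The within-group SD of TGFB1 on Oligo-344 was 0.23, and 31.6% of the probes well above background on all arrays had a smaller one. For BMP2 on A_69_P002111 it was 0.53, larger than that of 91.1% of those probes, and for BMP4 on A_69_P005400 67.2% of the probes had a smaller one. The median of these probes was 0.29. TGFB1 thus lay somewhat below the middle of these probes in spread and BMP2 near the upper end, with no allowance for signal level. The study chose both probes with a t test, which a small SD helps to pass, so nothing is read from these ranks.

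Sex was not used to choose the genes, so male and female horses were compared with group in the model. Over all probes, 23 (0.053%) had an adjusted p under 0.05 and 2589 (5.97%) an unadjusted p under 0.05. With slide as a block, 15 probes had an adjusted p under 0.05. None of the 18 ligand probes was among the 23, and the lowest adjusted p of a ligand probe was 0.848. Male minus female differences were 0.00 for TGFB1 on Oligo-344, -0.21 ± 0.24 (SE) for BMP2 on A_69_P002111 and -0.44 ± 0.31 (SE) for BMP7. The INHBA probes gave -0.71 ± 0.53 (SE) on A_69_P000421, -0.67 on A_69_P000424, -0.56 on A_69_P000423 and 0.05 on A_69_P000422. These INHBA values lie mostly in background signal, since no probe was well above it on more than 7 arrays. No difference between the sexes in a ligand passed after adjustment. Whether the group difference depended on sex was tested as an interaction. Of all probes, 0 (0%) passed an adjusted p of 0.05, or 3 with quantile normalization, and 1323 (3.05%) had an unadjusted p under 0.05. For the ligand probes the lowest adjusted p of the interaction was 0.983, and with 3 control females the test had little precision.

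Probes of the same gene were compared across horses after the group means were subtracted, over a family of 38 probe pairs. The BMP2 probes rose and fell together, with Pearson r = 0.990 and Spearman rho = 0.993 (permutation adjusted p = 1.03e-05 for r). Without horse648 and horse474, the 2 farthest from the median, r was 0.983, and with slide means also subtracted it was 0.991. Different probes for this gene therefore ranked the horses almost alike.

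For TGFB1, r was 0.891 and rho 0.916 (permutation adjusted p = 1.03e-05 for r). It was 0.890 within control horses, 0.900 within EE horses, 0.911 with slide means subtracted and 0.901 without horse470 and horse650. The 36 pairs of BMP4 probes had r from 0.844 to 0.977 with a median of 0.932, rho from 0.840 to 0.968, and a highest permutation adjusted p of 4e-05. Every BMP4 pair thus followed the same order of horses closely, and within control horses alone r ran from 0.855 to 0.997 and within EE horses from 0.814 to 0.961. Without the 2 farthest horses the range was 0.870 to 0.964, and with slide means subtracted 0.815 to 0.982.

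**Figure D4:**
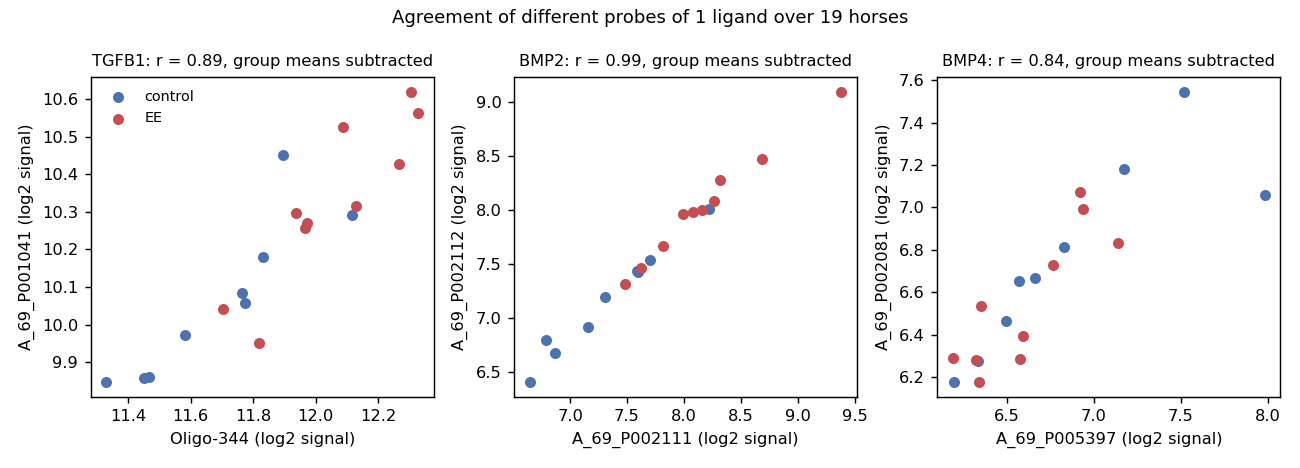
Each panel sets the log2 signal of a probe of TGFB1, BMP2 or BMP4 against that of another probe of the same gene in 9 control and 10 EE horses, with the pair of lowest r shown for BMP4. The r above each panel, 0.891 for TGFB1, 0.990 for BMP2 and 0.844 for BMP4, was computed after group means were subtracted.

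With probes of 1 gene in such close accord, 1 reference probe per detected ligand was used to ask whether the ligands varied together, which gave 3 relations. No relation was detected between TGFB1 and BMP2 (r = -0.059, permutation p = 0.816, rho = -0.016) or between TGFB1 and BMP4 (r = -0.093, permutation p = 0.715, rho = -0.112). Without horse470 and horse650 these r were -0.275 and -0.134, and 19 horses do not show that a relation is absent. Without subtracting group means, TGFB1 and BMP2 had r = 0.381, which holds the group difference that chose both genes. BMP2 and BMP4 had r = 0.539 (permutation p = 0.0204, adjusted 0.0613) and rho = 0.584 (permutation p = 0.0121, adjusted 0.0364). Their relation passed 0.05 after adjustment by rank and not by Pearson correlation, so it stands near the limit. It was r = 0.385 within control horses (exact permutation p = 0.305) and 0.691 within EE horses (permutation p = 0.0183). Without horse648 and horse474 it was 0.598 (permutation p = 0.0170), and with slide means subtracted 0.419 (permutation p = 0.0765). The relation did not rest on these 2 horses, the farthest in BMP2, but it did not hold by every measure. The horses farthest in BMP4 were not left out together. Without subtracting group means, r was 0.147.

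**Figure D5:**
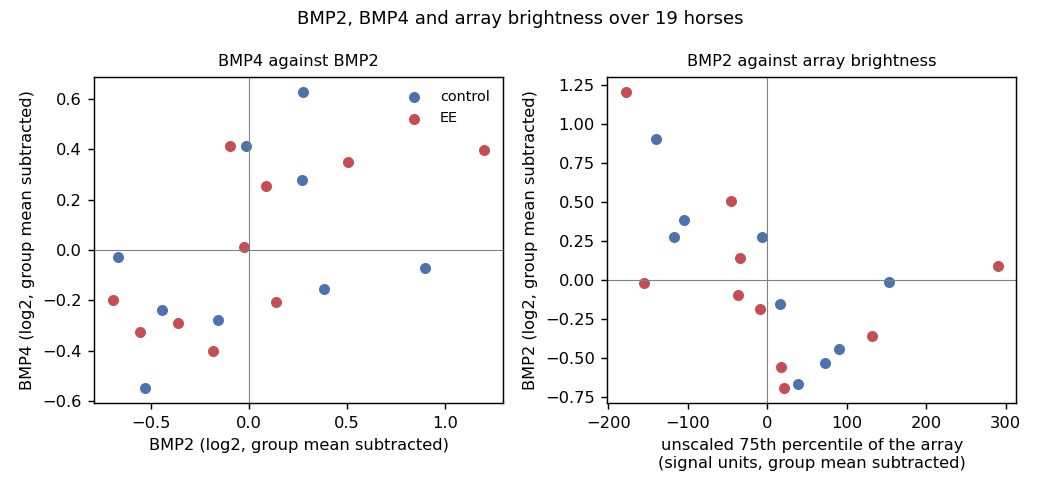
The log2 signal of BMP2 is set against that of BMP4 and against the unscaled 75th percentile of the array in 19 horses, after group means were subtracted. BMP2 rises with BMP4 (r = 0.539) and falls as the array's 75th percentile rises (r = -0.544).

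Each detected ligand was also compared with the unscaled 75th percentile of its array and with the array's share of spots well above background, which made 6 relations. BMP2 was higher on arrays with a lower 75th percentile, with r = -0.544 (permutation p = 0.0236, adjusted 0.142) and rho = -0.625 (permutation p = 0.00679, adjusted 0.0407). The relation had r = -0.747 within control horses (exact permutation p = 0.0221), -0.422 within EE horses (permutation p = 0.218), -0.478 with slide means subtracted (permutation p = 0.0445) and -0.661 without horse475 and horse648 (permutation p = 0.00739). The plot of BMP2 against array brightness shows the same direction in both groups. EE arrays had the lower mean 75th percentile, and with the log2 of that percentile as a covariate the BMP2 difference was 0.67 in place of 0.86. That covariate was chosen after seeing the data, and the part of array brightness in the BMP2 difference was not tested further. The other 5 relations had an absolute r of at most 0.372 and adjusted p of at least 0.397.

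The detected ligands were compared with the 12 detected marker genes in 36 relations, chosen after seeing the data. After adjustment 0 passed 0.05, and 6 had an unadjusted permutation p under 0.05. TGFB1 rose with the monocyte markers CD68 (r = 0.609, permutation p = 0.00629, adjusted 0.144) and CD14 (r = 0.515, permutation p = 0.0284, adjusted 0.255). With the platelet markers ITGA2B and SELP its r was 0.327 and -0.030. Without horse650 and horse468 the r with ITGA2B was 0.016. Within control and within EE horses, r was 0.462 and 0.765 for CD68 and 0.224 and 0.831 for CD14. For ITGA2B it was 0.245 and 0.413, and for SELP -0.565 and 0.456. Lymphocyte markers also gave large values within a group, with opposite signs in the groups. For GNLY, r was 0.423 and -0.738, for CD2 0.535 and -0.622, and for IL7R 0.731 and -0.126. None of these relations passed the limit after adjustment, and the difference between the cell types was not tested. BMP2 rose with FCER2 of B cells (r = 0.580, permutation p = 0.0120, adjusted 0.144) and with IL7R of T cells (r = 0.472, permutation p = 0.0495) and fell with SELP of platelets (r = -0.610, permutation p = 0.00846), while with ITGA2B of platelets its r was 0.278. Without the 2 horses farthest in each marker, a different pair each time, FCER2 gave 0.451 (permutation p = 0.0784), IL7R 0.321 (permutation p = 0.225) and SELP -0.415 (permutation p = 0.133). The unadjusted calls of these 3 relations thus rested on those horses, while their signs did not. With slide means subtracted, FCER2 gave 0.567 (permutation p = 0.0137), IL7R 0.520 (permutation p = 0.0252) and SELP -0.619 (permutation p = 0.00371). BMP4 fell with the hemoglobin gene HBB (r = -0.478, permutation p = 0.0407). Without the 2 farthest horses, TGFB1 had r = 0.545 with CD68 (permutation p = 0.0335) and 0.631 with CD14 (permutation p = 0.00633), and BMP4 had -0.526 with HBB (permutation p = 0.0384). The part of the cell mixture in the ligands' differences was not tested.

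The marker FCER2 encodes CD23, the low-affinity IgE receptor of B cells. It was on the study's list, made with the same limits, so its values are a description and nothing is read from them. Of its 6 probes 5 were higher in EE horses past the study's limits, beside 1.18% of all probes, and the median difference over the 6 was 1.04.

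The named genes most like each ligand were sought among 461 to 462 genes with a probe well above background on all 19 arrays, after group means were subtracted. For TGFB1 the highest r were those of CPNE1 (0.808, adjusted permutation p = 0.0300), SZRD1 (0.787, adjusted 0.0300) and PKM (0.736, adjusted 0.0922), and the lowest was that of XPO1 (-0.682, adjusted 0.119). CPNE1 encodes a calcium-dependent phospholipid-binding protein, PKM the glycolytic enzyme pyruvate kinase, and XPO1 the nuclear exporter exportin-1. For TGFB1, 2 genes passed an adjusted p of 0.05 and 62 an unadjusted p of 0.05, and CPNE1 no longer passed after quantile normalization (r = 0.721).

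For BMP2 the highest r were those of PRM1 (0.644), the lymphocyte egress receptor S1PR1 (0.614) and FCER2 (0.580), and the lowest that of C1H15orf48 (-0.726, adjusted permutation p = 0.137). PRM1 encodes a protamine of sperm chromatin. For BMP2, 0 genes passed after adjustment and 52 had an unadjusted p under 0.05. For BMP4 the highest were the lipid droplet protein gene PLIN2 (0.618), the collagenase gene MMP1 (0.612) and CYP2D50 (0.595), and the lowest was the receptor gene TNFRSF14 (-0.528). For BMP4, 0 genes passed after adjustment and 13 had an unadjusted p under 0.05, so no gene could be singled out as varying with BMP2 or BMP4.

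The wider family was taken from a list of 97 genes in fixed roles, of which 10 could be named by accession, with 20 probes. Of these, 8 genes and 9 probes were well above background on at least 15 arrays. None of the 14 receptor genes could be named by accession. Over the 20 probes, 0 passed the study's limits in either direction, against 1.82% of all probes, and 2 had an unadjusted p under 0.05, against 11.7% of all probes, so neither share was above that of all probes. Their median difference was 0.18, beside 0.06 for all probes. Since 11 of the 20 probes were not well above background on 15 arrays and 8 of the 20 belong to SMAD5, nothing is read from that median.

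Given as values only, the 2 probes were those of MMP9, a protease that can release stored TGF-β, and of MSTN, the ligand myostatin. MMP9 differed by 0.59 ± 0.23 (SE) with an adjusted p of 0.342, and its SD was 0.69 in control and 0.32 in EE horses. All 10 EE horses lay above the control mean. Nothing is read from that count, since the probe was picked by its p in this comparison. MSTN on A_69_P000672, well above background on all 19 arrays, differed by 0.29 ± 0.13 (SE) with an adjusted p of 0.386. The other MSTN probe, A_69_P000671, was well above background on 1 array and differed by 0.003, so the MSTN probes disagreed. These differences were EE minus control and none passed after adjustment. Of the other genes, FST, whose product follistatin binds activins, differed by 0.16, the proteoglycan gene BGN by 0.31, the TGF-β target gene KLF10 by 0.21 and 0.23 on its 2 probes, and the SMAD partner SKI by 0.06. INHA, the inhibin α subunit, was well above background on 0 arrays and DCN on 5.

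SMAD1, which carries BMP signals, was detected with 1 of 2 probes and differed by 0.13 on it, A_69_P003576 (adjusted p = 0.841). The other SMAD1 probe was well above background on 0 arrays. SMAD5 was detected with 1 of 8 probes (-0.04, adjusted p = 0.930). From the study's list, and so without a test, the difference was 0.54 ± 0.13 (SE) for the inhibitory SMAD6, 0.40 ± 0.11 (SE) for SMAD9, 0.40 ± 0.12 (SE) for the activin receptor ACVR1B and 0.33 ± 0.08 (SE) for the kinase MAPK3.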

How the data were processed

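Whole blood of 19 horses was measured, 1 array each. The authors made the deposited scanner files with Agilent Feature Extraction (10.7.3.1 per the file headers, 9.1 per the labels), and their processed signal is a background-subtracted intensity in arbitrary units. The authors also deposited a log2 table, scaled to the 75th percentile with a floor of 10, which matched the scanner files within 0.00118 over 43000 probes with 1 spot. Its array medians were 5.08 to 5.28, and 31.5% to 41.1% of an array's probes sat at the floor.

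From the deposited intensity, outlier spots (at most 56 per array) were dropped, each array was scaled to a 75th percentile of 500, log2 was taken and the spots of a probe were averaged, which turned 43803 spots into 43384 probes. RefSeq accessions named 1781 probes and 799 genes. Groups were compared with limma 3.58.1 in R 4.3.3, without covariates. Sex was fitted with group in the model, and p-values were two-sided and adjusted by Benjamini and Hochberg over all probes. Group means were subtracted before each correlation (Python 3.11.15, scipy 1.17.1), with p-values from 100000 permutations within groups (smallest possible 1e-05) or exact ones for the 9 control horses, adjusted within each family. The fit was tested on simulated data.

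The members and lists were chosen with earlier results of these data known. The named genes were all ligand probes, the family genes that could be named, SMAD6, SMAD9, ACVR1B and MAPK3, and for each detected ligand the 3 genes most alike and the 1 least alike. Alternatives were quantile normalization, median centering, a filter on dim probes, outlier spots kept, a covariate for sex, a block for slide, a floor of 10, the authors' log2 table, a random-variance test, a stricter limit and leaving out each horse. Alternatives chosen after seeing the data were the first scan session alone, array brightness as a covariate, the marker correlations and the repeats of the likeness. So was a detail of the normexp background correction, which used the median signal of each spot with an offset of 50 and left out 32 spots with very bright local background. No paired test was made. No sequence of a probe was in the files.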

Additional observations from a re-analysis of the deposited data

Results flagged for a closer look

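In each group of 9 or 10 horses, a horse far from the others was sought by Dixon's test, for each named probe. This marks about 1 in 20 groups by chance. Of 112 groups tested, 9 held such a horse, and none was in a probe of TGFB1, BMP2, BMP4, BMP7 or INHBA. All values are log2 signal. The spots of horse650 on A_69_P004686 and of horse473 in INHA were not well above background, so those values lie in background signal.

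In SMAD5, control horse650 reached 2.61 on A_69_P004686 where the next was 1.19, EE horse642 reached 5.33 on A_69_P004688 where the next was 2.16, and EE horse646 reached 4.80 on A_69_P115011 where the next was 4.19. In other family genes, control horse476 was lowest in FST at 6.16 (next 7.27), EE horse473 highest in INHA at 2.36 (next 1.39) and EE horse651 highest in MSTN on A_69_P000671 at 3.47 (next 1.90). Among markers, EE horse646 was highest in CD68 at 9.19 (next 8.34) and control horse650 highest in ITGA2B at 9.04 (next 8.31). In MAPK3, control horse476 was highest at 6.85 (next 6.52). Control horse650 and EE horse642 are also among the horses with a signal on every INHBA probe. No cause was tested.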

How the results depend on the processing

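Of the recomputed values, 897 kept their direction and side of the limit or moved little, 41 reversed, 13 moved, 7 became stronger and 1 weaker. Over the alternatives, the difference of TGFB1 Oligo-344 stayed between 0.31 and 0.37 (0.32 to 0.41 when each horse was left out), that of TGFB1 A_69_P001041 between 0.22 and 0.27 (0.23 to 0.31), that of BMP2 A_69_P002111 between 0.67 and 0.90 (0.73 to 0.98) and that of BMP4 A_69_P005400 between -0.31 and -0.15 (-0.32 to -0.18). Over all 9 BMP4 probes the alternatives ran from -0.33 (A_69_P005397) to -0.013 (A_69_P002084), and the value nearest 0 when each horse was left out was -0.033 (A_69_P005399). Probe agreement was 0.864 to 0.911 for TGFB1 and 0.990 to 0.991 for BMP2.

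The count of probes past the study's limits was 457 with array brightness as a covariate, 194 at p under 0.001, and 501 (without control horse477) to 1039 when each horse was left out. Probes with adjusted p under 0.05 numbered 2 with dim probes filtered out, which leaves fewer probes to adjust over, 3 with normexp background correction, and 0 to 3 when each horse was left out (3 without control horse650, 1 without control horse472). Of the called probes 64.6% were higher in EE, 83.6% with normexp, 48.8% without control horse470 and 52.3% without EE horse643. Sex gave 15 probes with slide as a block and the interaction 3 with quantile normalization. The family lists gave 2 probes at an unadjusted p of 0.05.

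The BMP7 difference ran from -0.041 (without control horse470) to 0.28. For INHBA, the A_69_P000422 difference was 0.12 with normexp and 0.13 in the authors' table, and ran from -0.40 to 0.26 when each horse was left out. For A_69_P000423 it was 0.16, 0.11 and, with brightness, 0.021, and ran from -0.28 to 0.33. With a floor of 10, A_69_P000421 gave -0.035 and A_69_P000424 -0.15, and the latter -0.035 in the first scan session alone.

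TGFB1 with BMP2 had r = 0.0537 in the first scan session and -0.169 to 0.0679 when each horse was left out (positive without horse474, horse476 or horse469). TGFB1 with BMP4 ran from -0.195 to 0.0262 (without horse645), and BMP2 with BMP4 from 0.474 to 0.626, with an adjusted p under 0.05 without horse477, horse476, horse650, horse474 or horse468.

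For array brightness, TGFB1 with the 75th percentile had r = -0.00973 in the authors' table and -0.206 with slide means subtracted. With slide means subtracted BMP4 had 0.154 with the 75th percentile and 0.0729 with the share of spots well above background. For markers, TGFB1 with HBA2 had -0.0494 after quantile normalization. With slide means subtracted TGFB1 had -0.0345 with FCER2 and 0.0932 with SELP, BMP2 had -0.0146 with CD14 and -0.0110 with CD68, and BMP4 had 0.0260 with CD2, 0.0234 with CD28, 0.107 with GNLY and -0.0930 with ITGA2B. CPNE1 with TGFB1 fell to 0.721 (adjusted p 0.119) after quantile normalization, while PKM (0.714, adjusted 0.0264) and XPO1 (-0.683, adjusted 0.0341) passed the limit with slide means subtracted. The cause of these changes was not tested.

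No paired analysis was made, since the groups had no horse number in common. The sexes were unbalanced, cell counts were not given, and most genes of the family could not be named by accession. Signals of BMP7 and INHBA lay mostly near background, and their differences are poorly bounded, with an SE of 0.31 for BMP7 and 0.52 to 0.59 for INHBA. In control horse650 and EE horse642 all 4 INHBA probes were well above background, and the cause of the wide spread was not tested. Only 3 control females were measured.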
